A study of Mus musculus with 12 samples.

Results

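Transcripts of 10 genes of the proximal Toll-like receptor (TLR) pathway were followed across m6A maps of 3 kinds of mouse dendritic cell (DC). They were those of the adaptors Tirap, Myd88, Ticam1 and Ticam2, the kinases Irak1, Irak2, Irak3 and Irak4, the ubiquitin ligase Traf6 and the inhibitory adaptor Tollip. These were chosen by gene symbol as members of this pathway. No m6A value entered the rule, but earlier results of these data were known. All 10 had a peak in at least 1 list, among 9140 genes with a peak in any list, and together they carried 55 of the 40978 listed peaks. The maps came from meRIP-seq, in which RNA fragments are immunoprecipitated with an antibody to m6A (IP) and sequenced beside untreated input RNA. Immature DC (imDC) were CD11c-selected cells grown with GM-CSF and IL-4 from bone marrow of C57BL/6 mice aged 6 weeks. Mature DC (maDC) were such cells given LPS, a TLR4 ligand, at 100 ng/ml for 24 h, and regulatory DC (DCreg) were maDC kept for 7 days with spleen endothelial cells. There were 2 replicates per DC type, each with an IP and an input library, 12 libraries in all, from wild-type mice, with the marrow of several mice used for each DC type. Each DC type had 1 list of peaks called on both replicates together, so counts of peaks carry no replicate error.

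At the plasma membrane Tirap brings Myd88 to TLR2 and TLR4, and Myd88 assembles Irak4 with Irak1 or Irak2, which engage Traf6 to switch on NF-κB and MAP kinase signalling. Ticam2 brings Ticam1 to TLR4, a branch that leads to type I interferon, while Irak3 (also called IRAK-M) and Tollip restrain the Myd88 branch. The methyl group of m6A is placed on mRNA by the Mettl3 complex, mostly within GGACU-like motifs and often near stop codons, and is known to affect mRNA stability and translation.

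The imDC list held 14 peaks on 8 of the 10 transcripts, the maDC list 22 peaks on all 10 and the DCreg list 19 peaks on all 10. Tirap and Tollip were the transcripts without an imDC peak. The order of the counts depended on the threshold. In their weaker replicate, 2 of 14, 7 of 22 and 1 of 19 member peaks had a log2 enrichment under 1.2 (20.3%, 16.1% and 16.5% of all peaks). Member peaks that reached 1.5 in both replicates numbered 5 on the imDC list, 10 on the maDC list and 14 on the DCreg list. Over all peaks of these lists, 5847, 10794 and 8216 did. In replicate 1 taken alone, 12 maDC peaks reached 1.5. Member peaks that reached 2 in both replicates numbered 5 in imDC, 8 in maDC and 6 in DCreg. At that threshold maDC also had the most over the whole lists, with 3045, 6144 and 4764 peaks. Among the 9140 genes of the series, 66.1% had a peak in imDC, 88.1% in maDC and 72.8% in DCreg. A further count gave 27.2% of genes with maDC but no imDC peaks, and 24.1% with maDC but no DCreg peaks. For the members these counts were 2 of 10 and 0 of 10, on few transcripts. A transcript that a DC type scarcely makes and one that it makes without m6A are both missing from its list, and these cannot be told apart. Each peak has a value per replicate, the log2 ratio of IP to input, each relative to its median window on that transcript. A peak had to reach 1 in both replicates to be listed.

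The GGACT motif is the DNA form of GGACU, and 11 such motifs were inside a member peak of at least 1 DC type. They are shown with the motif in capitals in 30 bases of the GRCm38 (mm10) reference, 5′ to 3′ on the strand of the gene. The reason is that they are candidate positions of the methyl group in these peaks. They are not the only ones, since some of these peaks held related motifs too, as GGACA and AGACT in the Tirap coding peak of maDC. The bases were read from the RefSeq transcript of each gene aligned to that assembly.
Tirap coding (chr9:35189001-35189030, minus strand, exon 6): ccacagtgaggaGGACTtggaggcggccca
Tirap 3′UTR (chr9:35187617-35187646, minus strand, exon 7): cgagttgtcaagGGACTgtgctatcgggaa
Myd88 coding (chr9:119339904-119339933, minus strand, exon 1): atccgggtccctGGACTccttcatgttctc
Myd88 3′UTR (chr9:119336768-119336797, minus strand, exon 6): cctgagcaactaGGACTgcctttcctccca
Ticam1 3′UTR, first (chr17:56269837-56269866, minus strand, exon 2): agtgacaagattGGACTtcacctgggtcct
Ticam1 3′UTR, second (chr17:56269767-56269796, minus strand, exon 2): agagtagccagaGGACTtagcttgggctcc
Irak2 3′UTR, first (chr6:113694268-113694297, plus strand, exon 13): ttctcaagttcaGGACTgcaaaagcaggac
Irak2 3′UTR, second (chr6:113694296-113694325, plus strand, exon 13): acggttggcaaaGGACTccgtaggctttct
Irak3 coding (chr10:120142833-120142862, minus strand, exon 12): ggcgccatcccaGGACTtaagtcctactgt
Traf6 3′UTR (chr2:101700865-101700894, plus strand, exon 8): gtcactcaaaaaGGACTaagctagttattt
Tollip 3′UTR (chr7:141884311-141884340, minus strand, exon 6): ccactgacccttGGACTtgtccacccaggg

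Of these 11 motifs, 8 lay in the 3′UTR, including the 2 of Ticam1 and the 2 of Irak2, which sit 70 and 28 bases apart. The coding motif of Myd88 and the 3′UTR motif of Traf6 were inside a peak in all 3 lists. The other 9 were inside a peak in maDC, in DCreg or in both, and in no imDC peak.

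**Figure D1:**
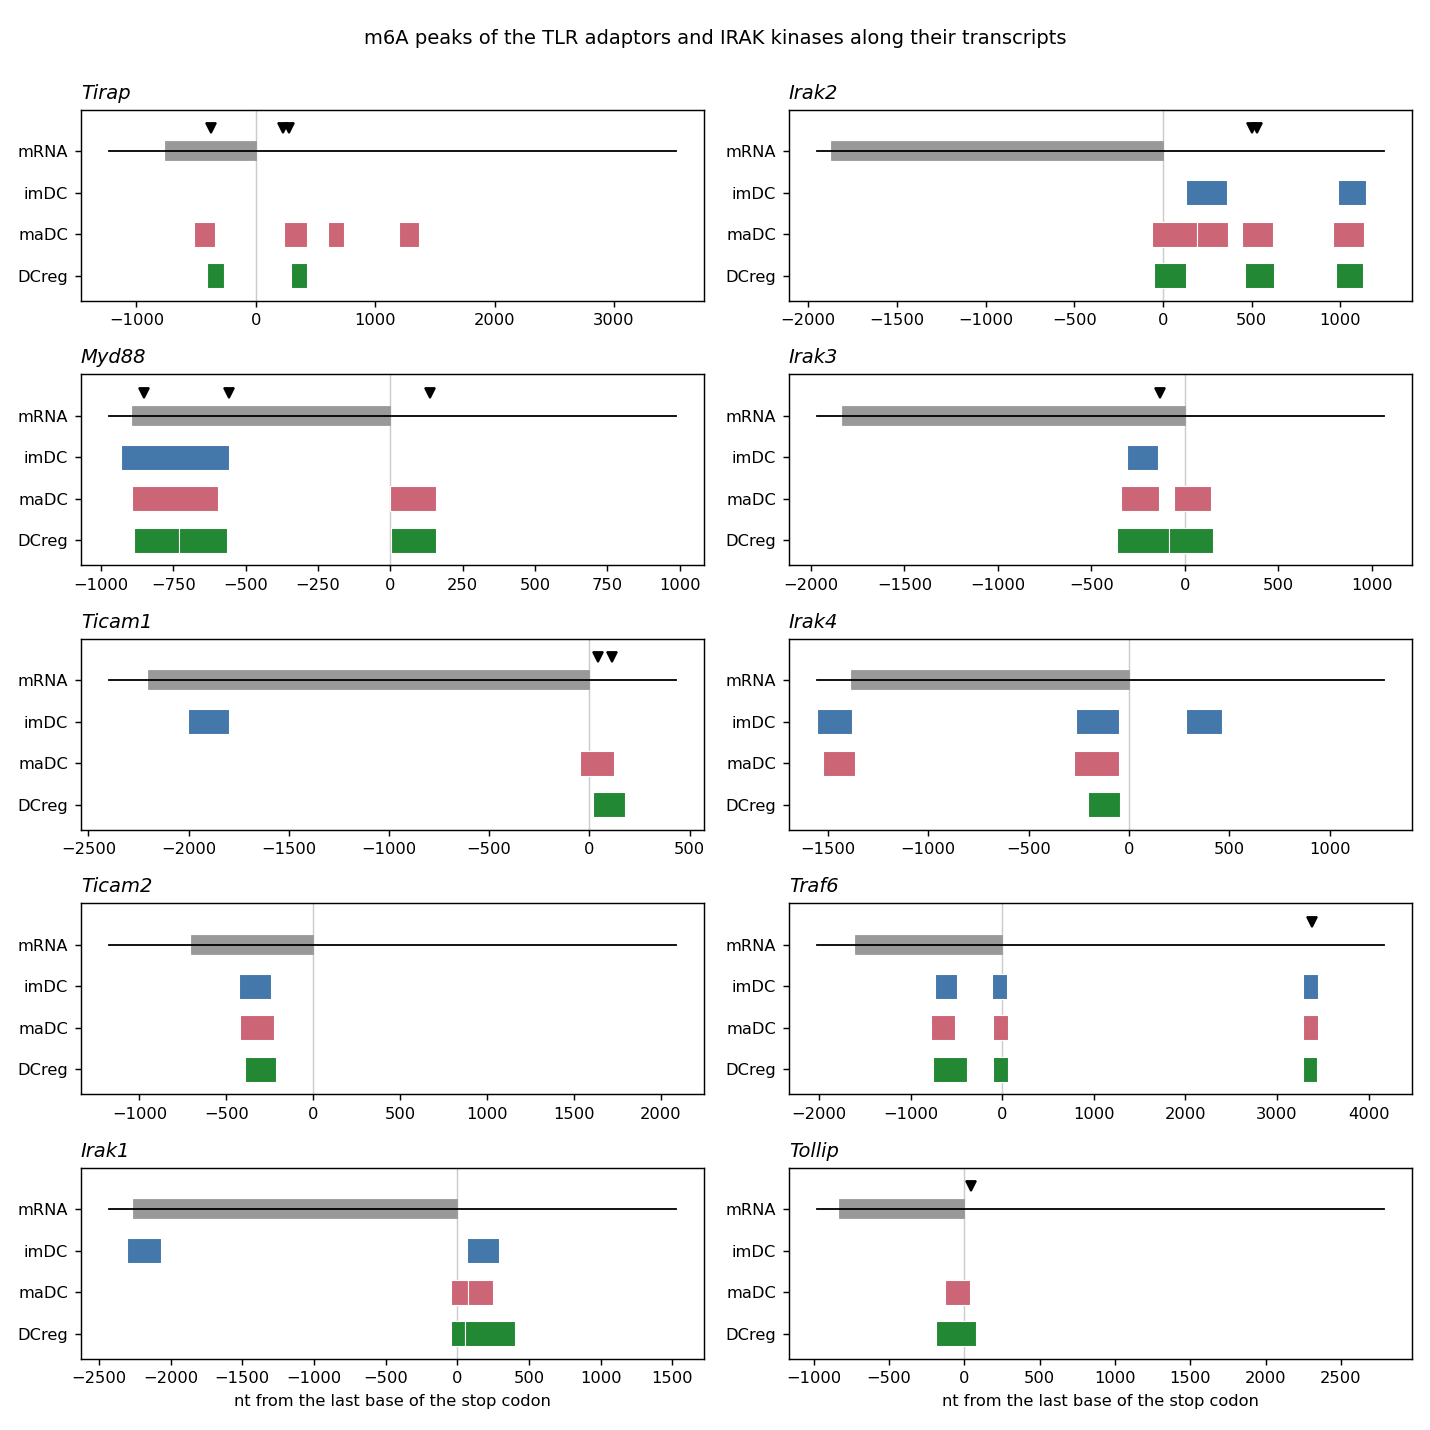
Peaks of the 10 transcripts along the mRNA, with the distance in nucleotides from the last base of the stop codon on the horizontal axis. The grey box is the coding sequence, coloured boxes are peaks of imDC, maDC and DCreg, and triangles mark GGACT inside a peak or within 20 nt of one. Traf6 carried the same 3 sites in all types, while Tirap and Tollip had no box in imDC.

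Peaks of different lists were joined into 1 site if their overlap covered 50% or more of the shorter, which gave 26 sites on the 10 transcripts. Of these, 9 were in all 3 lists (34.6%), beside 24.4% of the 22610 sites of the series, and 8 were shared by maDC and DCreg alone, which was 30.8% of the member sites beside 12.9% of all sites. None was shared by imDC and DCreg alone, 2 were shared by imDC and maDC alone, and 3, 3 and 1 were in imDC, maDC or DCreg only.

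Tirap, the adaptor that sorts Myd88 to the membrane, had 2 peaks in DCreg and 4 in maDC. In DCreg, the coding peak at nucleotides 821 to 960 of the transcript had 1.85 (replicate 1) and 1.36 (replicate 2) on the log2 scale, and the 3′UTR peak at 1521 to 1660 had 1.73 and 1.53. Values of other peaks are given in the same order of replicates. In maDC, the coding peak at 708 to 889 had 1.05 and 2.41, and the 3′UTR peak at 1461 to 1660 had 1.43 and 2.24. Each of these maDC peaks held one of the GGACT motifs shown, and each was lower in replicate 1. The other Tirap peaks of maDC, at 1831 to 1970 and 2431 to 2594, had 1.15 and 1.49, and 1.82 and 1.05, and held no GGACT.

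The coding peaks of Tirap in DCreg and maDC overlapped by 69 nucleotides, 49.3% of the shorter, and so counted as separate sites although both covered the same GGACT. The 3′UTR peak ended at the same nucleotide in both types but began at 1521 in DCreg and 1461 in maDC, so that the motif's A, at nucleotide 1508, lay inside the maDC peak and 13 nucleotides before the DCreg peak. At this 3′UTR site the mean log2 enrichment was 1.63 in DCreg and 1.84 in maDC, a difference of -0.21 with a 95% interval from -1.12 to 0.70 (limma adjusted p = 0.964). The replicates of the 2 types overlapped. The 3′UTR peak reached 1.5 in both replicates of DCreg, whereas no Tirap peak did in maDC.

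Myd88 carried a site at its start codon in all types. The imDC peak at 40 to 413 had 2.71 and 1.32, the maDC peak at 81 to 375 had 1.32 and 1.73, and DCreg had 2 touching peaks, at 85 to 240 with 2.80 and 2.01 and at 241 to 407 with 2.88 and 1.65. The coding sequence began at nucleotide 82, so the first DCreg peak was listed as coding and the maDC peak as start codon although they began 4 nucleotides apart. The imDC peak, the maDC peak and the first DCreg peak covered the coding GGACT shown. The second Myd88 site lay just behind the stop codon in exons 5 and 6, at 973 to 1129 with 1.96 and 2.28 in DCreg and at 972 to 1129 with 1.09 and 2.30 in maDC. It held the other GGACT of Myd88, and imDC had no peak there. At the start codon site, the first DCreg peak was above maDC in both replicates by 0.88 ± 0.56 (SE), which did not pass the test (limma adjusted p = 0.781), and at the 3′UTR site the difference was 0.42 ± 0.53 (limma adjusted p = 0.925).

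Ticam1, the adaptor of TLR3 and of the endosomal arm of TLR4, had 1 peak in each type, but not in the same place. In imDC the peak lay early in the coding sequence, at 393 to 599, with 2.92 and 1.33. In maDC it lay over the stop codon, at 2351 to 2520, with 1.12 and 1.06, and in DCreg at 2417 to 2575 with 1.48 and 2.63. The maDC and DCreg peaks covered both GGACT motifs of Ticam1 shown above, and the imDC peak held none. Both DCreg replicates were above both maDC replicates, by 0.97 ± 0.40 (SE), and the difference did not pass the adjustment over all shared peaks (limma adjusted p = 0.588). The maDC values stood close to the limit of the list, and 95.1% of its peaks had a higher value in their weaker replicate.

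Ticam2 had a single coding peak in every type and no GGACT in or near it. Its log2 enrichment was 1.46 and 2.89 in imDC, 3.25 and 2.85 in maDC, and 3.22 and 3.41 in DCreg. The imDC values were far apart, while those of maDC and of DCreg lay close together. DCreg was above imDC in both replicates by 1.14 with an interval from -0.39 to 2.66 (limma adjusted p = 0.824), and maDC above imDC on average by 0.88 with an interval from -0.46 to 2.21 (limma adjusted p = 0.983). By its weaker replicate the DCreg peak was the highest of the 19 member peaks of that list, and 7.14% of all DCreg peaks were higher.

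Among the kinases, Irak4 phosphorylates the other members of the family within the Myd88 complex. Its coding site, in exons 9 to 11 upstream of the stop codon, was in all 3 lists, with 2.95 and 2.30 in imDC at 1288 to 1502, 2.01 and 2.27 in maDC at 1280 to 1504, and 2.94 and 4.20 in DCreg at 1348 to 1507. DCreg was above maDC in both replicates, by 1.43 ± 0.71 (SE), with an unadjusted interval from 0.04 to 2.82, and did not pass the adjustment (limma adjusted p = 0.687). Irak4 had 3 imDC peaks, 2 maDC peaks and 1 DCreg peak. A start codon peak, with 1.15 and 2.13 in maDC and 1.29 and 1.47 in imDC, had no counterpart in DCreg, and a 3′UTR peak at 1838 to 2017, with 1.5 and 1.49, was listed in imDC only.

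Irak1, the kinase that passes the signal to Traf6, also had a start codon peak in imDC. This peak, at 126 to 360 with 1.19 and 1.82, was in the imDC list only. A stop codon peak was in the other lists, with 2.07 and 1.30 in DCreg at 2383 to 2482 and 1.39 and 1.79 in maDC at 2384 to 2499. In both it touched the next peak, in the 3′UTR. That 3′UTR site was in all lists, with 1.56 and 1.27 in imDC at 2493 to 2720, 1.99 and 2.23 in maDC, and 1.28 and 2.34 in DCreg. At this 3′UTR site both maDC replicates were above both imDC replicates, by 0.70 ± 0.49 (SE, limma adjusted p = 0.983). No Irak1 peak held GGACT.

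Irak2, which sustains signalling to Traf6, had 2 imDC peaks, 4 maDC peaks and 3 DCreg peaks, over 4 sites that all lay in exon 13, at the stop codon or in the 3′UTR. The site with both GGACT motifs had 3.11 and 2.70 in DCreg at 2413 to 2576 and 4.08 and 2.93 in maDC at 2394 to 2568, and no peak in imDC. In maDC it was among the strongest member peaks, with 9.03% of all maDC peaks higher in their weaker replicate. The difference between DCreg and maDC there was -0.60 ± 0.73 (SE), with overlapping replicates (limma adjusted p = 0.921). The stop codon site was likewise in DCreg, with 2.11 and 1.72 at 1901 to 2080, and in maDC, with 1.94 and 2.82 at 1890 to 2138. The nearest imDC peak, at 2080 to 2312, overlapped this maDC peak by 59 nucleotides, 25.3% of the shorter, and the DCreg peak by 1. It thus counted as another site.

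The next Irak2 site had 2.73 and 3.40 in maDC at 2139 to 2313, above both imDC values of 1.03 and 2.48 at 2080 to 2312, and was not in the DCreg list. The difference of maDC from imDC, 1.31 with an interval from -0.01 to 2.63, was the largest of the 11 shared member peaks in that comparison (limma adjusted p = 0.983). The last site, in all 3 lists, had 3.06 and 1.43 in imDC, 2.15 and 1.46 in maDC, and 1.54 and 3.59 in DCreg. The replicates of the types overlapped, so that no order of the types can be read from it.

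Irak3, a kinase-like inhibitor of the Myd88 complex, had a coding site in exon 12 in all types, with 2.58 and 3.46 in imDC, 2.94 and 2.73 in maDC, and 2.98 and 1.98 in DCreg. It was the strongest member peak of imDC by its weaker replicate. The replicates of the types overlapped, and the differences were -0.18 ± 0.69 for maDC minus imDC (limma adjusted p = 0.999) and -0.36 ± 0.69 for DCreg minus maDC (limma adjusted p = 0.961). A second site over the stop codon had 2.19 and 1.53 in DCreg and 1.36 and 2.05 in maDC, and was not in the imDC list. The GGACT shown for Irak3 has its A at nucleotide 1775, inside the DCreg peak at 1546 to 1825 but 7 nucleotides behind the end of the maDC peak and 11 behind that of the imDC peak.

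Traf6 had the same 3 sites in every type and the strongest member peak of all lists. The stop codon site had 2.27 and 4.27 in imDC, 4.16 and 4.20 in maDC, and 3.24 and 2.21 in DCreg. The share of a list's peaks with a higher value in their weaker replicate was 19.1% for this site in imDC, 0.543% in maDC and 28.2% in DCreg. Both DCreg replicates lay below both maDC replicates, by -1.45 with an interval from -2.88 to -0.01 (limma adjusted p = 0.695), and maDC and imDC overlapped through the high replicate 2 of imDC. The coding site had 2.23 and 3.19 in imDC, 3.28 and 3.89 in maDC, and 3.46 and 1.75 in DCreg. There both maDC replicates were above both imDC replicates by 0.87 with an interval from -0.49 to 2.24 (limma adjusted p = 0.983), whereas the DCreg values overlapped those of each other type.

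The 3′UTR site of Traf6, far behind the stop codon, held the GGACT shown. It had 3.12 and 2.13 in imDC, 2.08 and 2.64 in maDC, and 2.46 and 2.74 in DCreg, with differences of -0.26 for maDC minus imDC, 0.24 for DCreg minus maDC and -0.03 for DCreg minus imDC, each with an SE of 0.68 to 0.72 (limma, adjusted p of 0.995, 0.975 and 0.994). Its edges were also the most alike of the 8 member sites with 1 peak in each list. The starts fell within 5 nucleotides and the ends within 6, and those of the stop codon site within 8 and 13. Over 5222 such sites of the series the median ranges were 23 and 24 nucleotides, and 19.2% had both within 15.

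Tollip, which binds Irak1 and sorts receptors in endosomes, had 1 site over its stop codon, in DCreg at 733 to 1000 with 1.27 and 1.03 and in maDC at 795 to 958 with 1.19 and 2.12. The GGACT shown, with its A at nucleotide 964, was inside the wider DCreg peak and 6 nucleotides behind the end of the maDC peak. The difference of DCreg from maDC was -0.50 ± 0.33 (SE), with an interval from -1.15 to 0.14 (limma adjusted p = 0.799). Both were weak peaks of their lists, with 96.8% of DCreg peaks and 84.5% of maDC peaks higher in their weaker replicate.

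**Figure D2:**
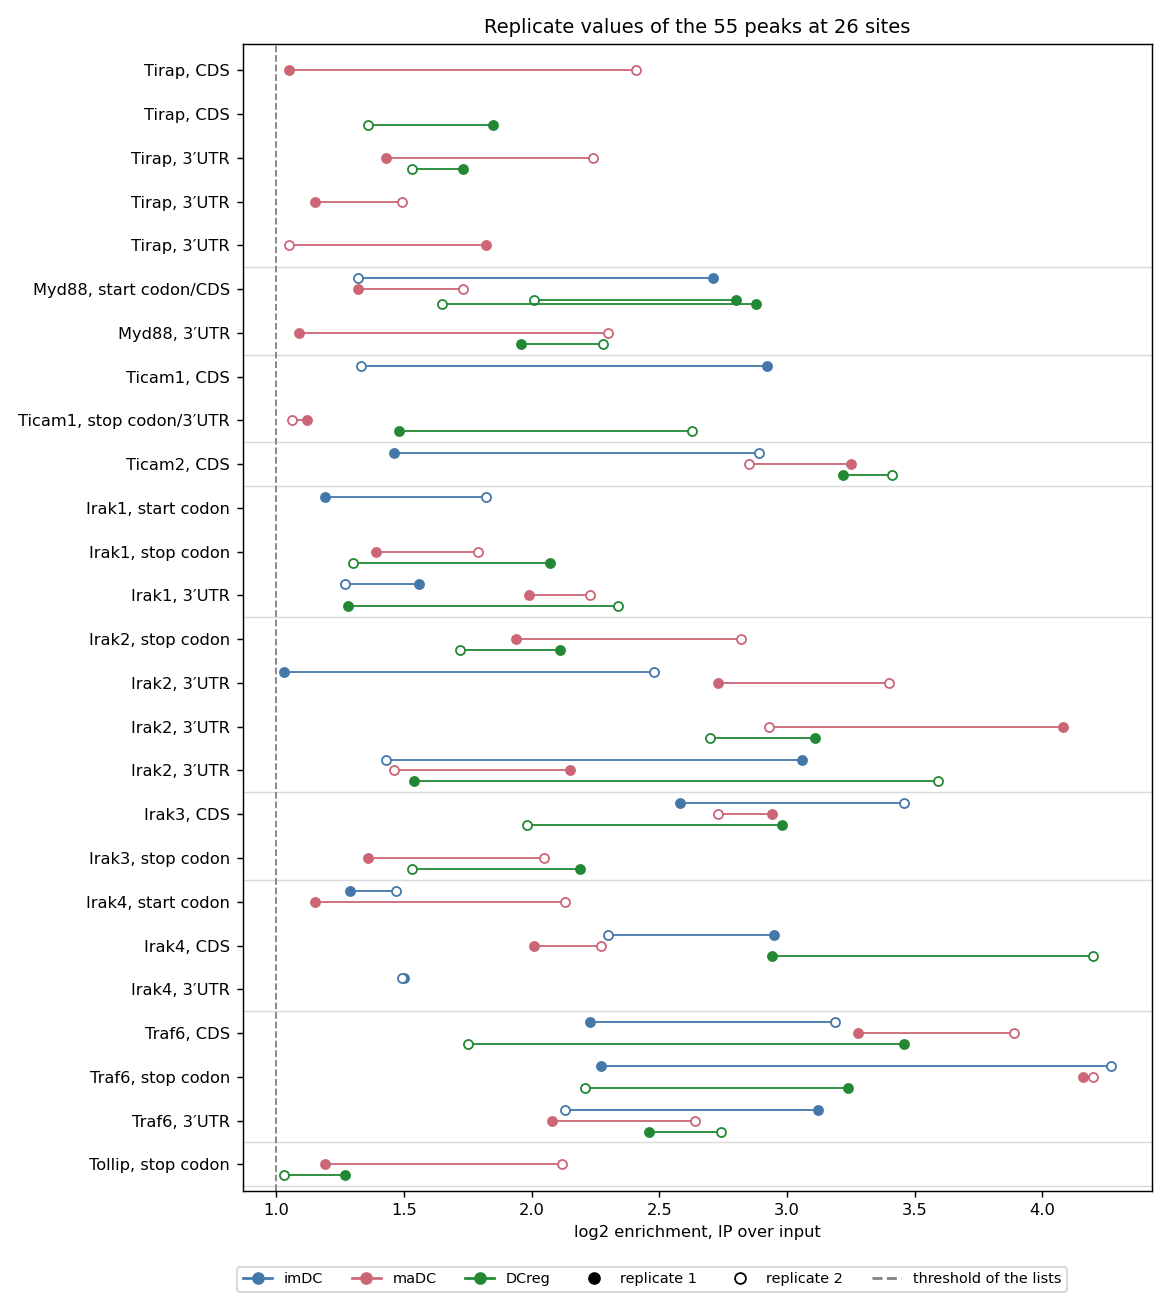
Log2 enrichment of IP over input (horizontal axis) in replicate 1 (filled circle) and replicate 2 (open circle) of each peak, by site from 5′ to 3′ within a gene and coloured by DC type, with a line joining the replicates of a peak. Replicates lay far apart at some peaks, as at the last Irak2 site, with 1.54 and 3.59 in DCreg, and close together at the Traf6 stop codon peak of maDC, with 4.16 and 4.20.

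More member peaks of maDC and DCreg than of imDC lay at the stop codon or in the 3′UTR. The stop codon or 3′UTR classes held 6 of 14 imDC peaks (42.9%), 15 of 22 maDC peaks (68.2%) and 12 of 19 DCreg peaks (63.2%), where 35.2%, 42.2% and 40.3% of all peaks of these lists fell. The share of the members was above that of the list in each type, on few peaks. Start codon peaks numbered 3 in imDC, on Irak1, Myd88 and Irak4, 2 in maDC, on Myd88 and Irak4, and 0 in DCreg. The 5′UTR and start codon classes together held 26.3% of the whole imDC list, 18.5% of the maDC list and 11.4% of the DCreg list. The smaller 5′ share in DCreg was thus seen in the whole list too, and the Myd88 peak of DCreg that began at nucleotide 85 lay just past the start codon. Some neighbouring peaks formed 1 longer enriched stretch. In maDC 4 of 22 member peaks and in DCreg 6 of 19 touched another peak, beside 21.8% and 20% of all peaks of these lists. In imDC the member count was 0 of 14, beside 16.6%.

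**Figure D3:**
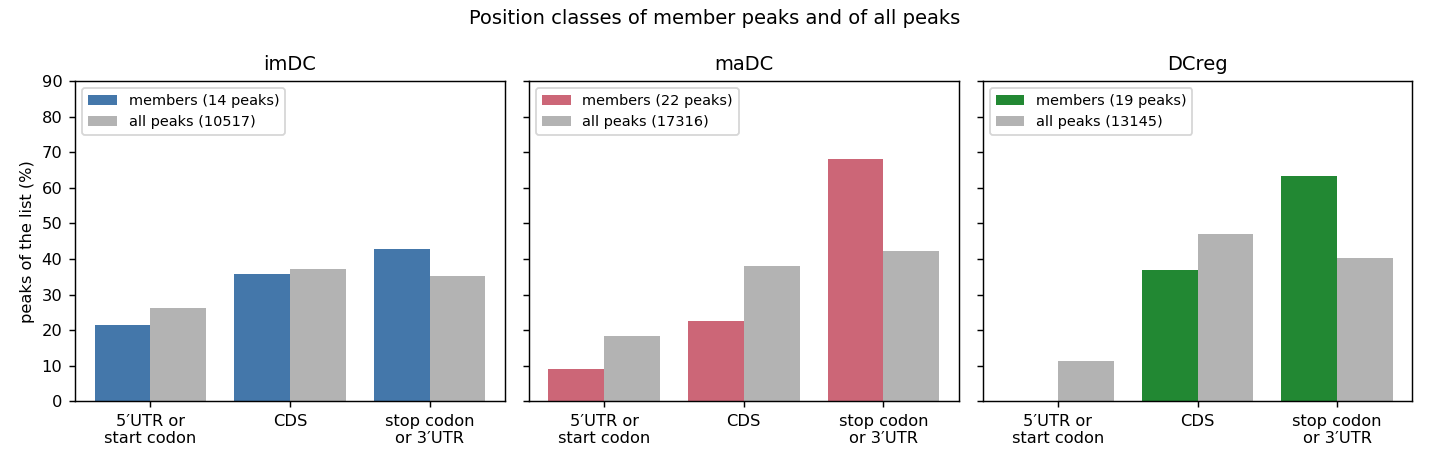
Share of peaks (vertical axis, percent) in 3 position classes for the members (coloured bars) and for all peaks of the same list (grey bars), in imDC, maDC and DCreg. The stop codon or 3′UTR share of the members was 42.9%, 68.2% and 63.2%, and the 5′UTR or start codon share was 0 in DCreg.

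The deposited motif positions placed GGACT in 2 of 14 imDC peaks, 7 of 22 maDC peaks and 8 of 19 DCreg peaks of the members. In all peaks of the lists the shares were 31.4%, 33.1% and 28%. The member share was thus below that of the list in imDC, close to it in maDC and above it in DCreg, on few peaks. It also depended on peak edges. With peaks widened by 10 nucleotides on each side the count was 2, 9 and 8, and with 20 nucleotides 3, 9 and 10. Over all peaks whose transcript sequence was in step with the listed motifs, the shares were 29.3%, 31.3% and 26% as listed, 31.4%, 33% and 27.9% with 10 nucleotides and 33%, 34.6% and 29.9% with 20. The member peaks that gained a GGACT were of Irak3 in imDC, of Irak3 and Tollip in maDC, and of Tirap and Myd88 in DCreg.

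At Traf6 and Irak4, coding sites that were in all 3 lists held no GGACT in the stretch common to the 3 peaks. Their common stretches are shown in full, with other GGAC motifs (GGACC or GGACA) in capitals, because they show the sequence under coding sites listed in every type in which no GGACT was found. The same held for the common stretches of the Irak3 and Ticam2 coding sites. They run 5′ to 3′ on the strand of the gene in GRCm38. That of Irak4 crosses the junction of exons 10 and 11, so that its interval includes an intron. The Irak4 peaks list no GGACT, so the place of its stretch in the reference was less closely fixed than that of Traf6.
Traf6 (chr2:101696765-101696987, plus strand, exon 8): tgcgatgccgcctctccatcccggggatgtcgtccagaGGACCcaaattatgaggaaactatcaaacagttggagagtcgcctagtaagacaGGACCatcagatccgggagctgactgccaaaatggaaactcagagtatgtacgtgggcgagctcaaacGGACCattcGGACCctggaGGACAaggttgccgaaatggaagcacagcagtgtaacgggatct
Irak4 (chr15:94563066-94566878, plus strand, exons 10 and 11): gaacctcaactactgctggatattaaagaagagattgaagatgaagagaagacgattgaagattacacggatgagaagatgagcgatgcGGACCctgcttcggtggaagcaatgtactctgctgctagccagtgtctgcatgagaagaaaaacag

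The Traf6 stretch of 223 bases held GGACC 4 times and GGACA once, and the Irak4 stretch of 155 bases GGACC once. The search covered 5 motifs on the strand of the transcript alone. These were GGACT and GGACA and GGACC and GAACT and AGACT, and matches of different motifs may share bases at their ends. Over the 26 member sites, taken from the first to the last base of their peaks, GGACC was in 14 sites (53.8%) of 9 genes, beside 27.2% of the 20083 sites of the series whose transcript sequence was in step with the listed motifs. GGACT was in 10 member sites (38.5%) beside 29.3%, GAACT in 9 (34.6%) beside 25.3% and AGACT in 8 (30.8%) beside 26.5%. GGACA went the other way, with 7 member sites (26.9%) beside 31.6%, and at least 1 of the 5 motifs in 24 (92.3%) beside 78.3%. Member sites had a median width of 203 nucleotides and all sites one of 188. The Traf6 stop codon site, with the strongest member peak, held none of the 5 motifs in the stretch common to its 3 peaks.

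At peaks shared by a pair of lists, the log2 enrichment was compared by limma over all shared peaks. A site listed in only 1 type of a pair, such as any Tirap or Tollip site against imDC, was not compared. The outcome thus covers shared peaks alone. Of 8308 peaks shared by maDC and imDC, 11 were on 7 members. No member peak passed an adjusted p of 0.05, nor did any of the 8308, so that 0% were called in either direction. An unadjusted p under 0.05 was found for 293 peaks of the series (3.53%) and for 0 of the 11 of the members, too few to set against that share. The median difference of maDC minus imDC was 0.26 over the member peaks and 0.21 over all. Both maDC replicates were above both imDC replicates at 3 member peaks, of Irak1, Irak2 and Traf6, and below at 1, the Irak4 coding peak, while 23.6% and 7.46% of all shared peaks were.

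Of 8488 peaks shared by DCreg and maDC, 17 were on all 10 members, and none of these passed (limma, lowest adjusted p of a member 0.588). Over all peaks 0.259% were called higher in DCreg and 0% lower. Of the 17 member peaks 3, of Ticam1, Irak4 and Traf6, had an unadjusted p under 0.05, beside 606 peaks of the series (7.14%). The median difference was 0.10 over the member peaks and 0.03 over all. Both DCreg replicates were above both maDC replicates at 3 member peaks, of Myd88, Ticam1 and Irak4, and below at 1, the Traf6 stop codon peak, and the shares over all shared peaks were 21.6% and 14.6%. On 17 peaks the member counts without overlap of the replicates were not above these shares.

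Of 6125 peaks shared by DCreg and imDC, 9 were on 7 members, none of which passed, nor did any of the others, so that 0% were called in either direction (limma, lowest adjusted p of a member 0.824). An unadjusted p under 0.05 was found for 377 peaks of the series (6.16%) and 0 of the 9 of the members. The median difference was 0.25 over the member peaks and 0.31 over all. The Ticam2 peak was the 1 member peak whose DCreg replicates both lay above imDC, as 30.1% of all shared peaks did, and 0 lay below, as 7.17% did. The 3 comparisons share their samples. The authors describe the replicates as biological, without naming separate cultures or animals. The p-values measure the spread between these samples, but pooled over peaks. The limma SE of a peak drew mostly on the spread at all shared peaks of like enrichment, and less on its own replicates. In a simulation, values were drawn with the moderated spread of these data, and 50 peaks each were shifted by 1, 2, 3 or 4 (log2). A shift of 1 was called in 0% in each comparison. A shift of 2 was called in 6% of maDC and imDC peaks, 30% of DCreg and maDC peaks and 18% of DCreg and imDC peaks. A shift of 3 was called in 70%, 94% and 68%. Among unshifted peaks, 5, 14 and 3 were called. In that setting, differences of the size seen at the members were mostly not called. The share called depends on how many peaks are shifted, and the draw left out the lower limit of the lists.

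**Figure D4:**
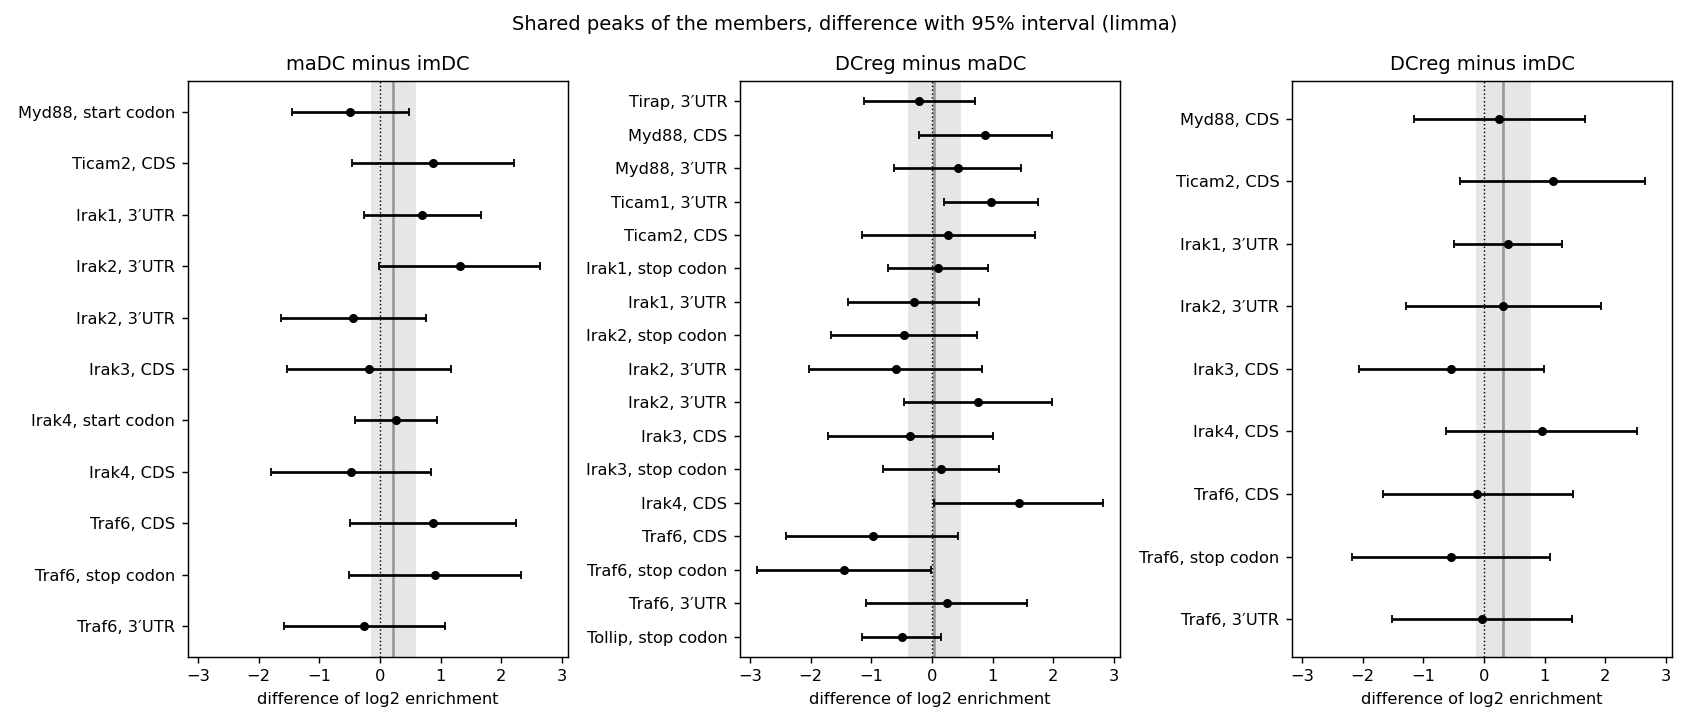
Difference of log2 enrichment at shared member peaks (points, with 95% intervals from limma) for maDC minus imDC, DCreg minus maDC and DCreg minus imDC. The grey line and band give the median and interquartile range of all shared peaks, with medians of 0.21, 0.03 and 0.31. No member peak passed an adjusted p of 0.05.

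The replicates themselves differed by more than 1 at 6 of 14 member peaks in imDC, 3 of 22 in maDC and 7 of 19 in DCreg, where 24.8%, 15.5% and 27.1% of all peaks did. Replicate 1 was higher at 7 of 14, 6 of 22 and 12 of 19 member peaks, beside 45.4%, 38.1% and 58.4% of all. The labels give a TruSeq library kit for the first replicates of imDC and maDC, and NEBNext Ultra for the other 4 replicates. Library kit as a covariate gave no separate check of the kit. In maDC and imDC the kit follows the replicate number. In the DCreg comparisons the covariate sets aside the TruSeq replicate, which leaves 1 replicate of maDC or imDC. The part of the kit in the lower replicate 1 values of Tollip, Myd88 and the Tirap coding peak in maDC was not tested.

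The rest of the pathway was counted over 6 lists with 103 genes, of which 88 had a peak in any list, 60 in imDC, 81 in maDC and 64 in DCreg. Among 21 TLRs and co-receptors, 8 had a peak in imDC, 14 in maDC and 14 in DCreg, led by the LPS co-receptor Cd14, with 3.22 and 2.88 in DCreg, and Tlr7, a receptor of single-stranded RNA, with 3.13 and 2.83 in DCreg. Unc93b1, which carries endosomal TLRs, had 2.70 and 2.48 in imDC, and Ly86, the partner of Cd180, 2.42 and 3.54 in DCreg. Of 16 Traf6 partners, TAK1 and IKK kinases, 11, 16 and 12 had a peak, led by the kinase Map3k1, with 3.38 and 4.15 in maDC, and by Traf3, Tab2 and Ikbke. Of 14 transcription factors, 9, 11 and 8 had a peak, led by Creb1 (4.02 and 3.82 in maDC), Irf5, Nfkb1 and Rel. Of 12 MAP kinases, 9, 8 and 6 had a peak, among them Map2k3 (3.84 and 3.57 in imDC), Map2k4 and Map2k1.

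Of 16 TLR-induced targets, 7 had an imDC peak, 13 a maDC peak and 5 a DCreg peak. The highest were the co-stimulatory receptor Cd40, with 4.84 and 4.49 in maDC and no DCreg peak, Cd80, Nfkbia, the inhibitor of NF-κB, and Ptgs2, which makes prostaglandins and had peaks in maDC alone. Of 24 other regulators of TLR and IRAK signalling, 16, 19 and 19 had a peak, led by Pik3r1, a subunit of PI3 kinase (5.01 and 5.80 in DCreg), Usp25, Inpp5d and Tax1bp1. Of the 88 genes of these lists with a peak, 12 had the pattern of Tirap and Tollip, with peaks in maDC and DCreg and none in imDC. The same pattern was found for 13.7% of the 9140 genes of the series with a peak in any list. Closest in numbers of peaks were Ikbkg, the regulatory subunit of the IKK complex, with 2 peaks in DCreg and 4 in maDC as in Tirap, and Ripk3 and Tank, with 1 and 1 as in Tollip. Genes that differed from Tollip by 1 peak, such as Cd180 and Map3k8, were tied.

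As a check of the cells, 10 of 11 DC markers were on the imDC list, 11 on the maDC list and 7 on the DCreg list. Of 6 maturation markers, 6, 6 and 3 were. Of 12 endothelial and stromal markers, 0 had a peak in imDC, 3 in maDC and 7 in DCreg. Pecam1 had a peak in maDC alone, Kdr had 3 peaks in maDC and 1 in DCreg, and Vwf had 1 and 3. Col1a1, Col1a2, Col3a1, Col4a1 and Sparc had peaks in DCreg alone, while Cdh5, Tek, Tie1 and Egfl7 had none in any list. Of 8 macrophage markers, 3, 6 and 6 had a peak, of 7 neutrophil markers 3, 3 and 2, and of 7 lymphocyte markers 0 in each. Fewer or other cells and fewer transcripts per cell cannot be told apart here, and the part of other cells in the DCreg peaks of the members was not tested.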

How the data were processed

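meRIP-seq peak lists of imDC, maDC and DCreg were used, with 2 replicates per type grouped by their labels. The authors deposited, for each peak, its position on the longest RefSeq transcript of the gene, its part of the transcript, its GGACT positions and the log2 enrichment of IP over input in each replicate. By the methods and the submitters' processing notes, TopHat2 2.0.14 mapped the reads to mm10, and sliding windows were tested by edgeR (version not stated there) and merged into peaks. Read depth is unknown, so no detection limit can be given. Replicate columns were taken to follow the numbering of the labels.

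Members were found by gene symbol. The members and gene lists were chosen with earlier results of these data known. Genes were joined through RefSeq transcripts (Python 3.11.15, pandas 2.3.3). Sequences and exons came from RefSeq on GRCm38. For Myd88, Irak3 and Tollip the reference transcript was shifted by 22, 60 and 55 nucleotides against the listed positions. Each shift brought all listed motifs and position classes into step, and listed positions are printed. For Irak4, Irak1 and Ticam2, whose peaks list no GGACT, 50, 99 and 213 of the shifts tried met all checks, and no shift was used. Their genome positions and motif counts are thus less certain. Peaks counted as shared where the overlap was 50% or more of the shorter and each was the other's best match. They were compared by limma 3.58.1 (lmFit and eBayes with trend, R 4.3.3) in each pair of types, with Benjamini-Hochberg adjustment over all shared peaks and a threshold of 0.05, after a test on simulated data. Replicate numbers did not pair the samples. All member peaks are named. Some items that these rules select are not reported here. Genes of the pathway lists were named by the highest weaker replicate, up to 4 per list, and by sharing the lists of Tirap and Tollip, up to 5. Alternatives were other overlaps, centring, no trend, replicate block, library kit, leaving out a replicate, higher thresholds and widened peaks, the last chosen after seeing the data.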

Additional observations from a re-analysis of the deposited data

How the results depend on the processing

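No member peak passed limma's threshold under any alternative in any of the 3 comparisons. The number of peaks called over the series moved. For DCreg minus maDC it was 22, with 10 at an overlap of 80% of the shorter peak, 0 without the trend, 6 with the replicate block, 0 with library kit as a covariate, and 1 to 136 when 1 replicate was left out (136 without DCreg replicate 1, 9 without DCreg replicate 2, 1 without maDC replicate 1 and 2 without maDC replicate 2). For maDC minus imDC it was 0, with 0 to 103 when 1 replicate was left out (103 without imDC replicate 2) and 0 with the replicate block. For DCreg minus imDC it was 0, with 2 after centring, 1 with library kit, 0 with the replicate block and 0 to 2 when 1 replicate was left out. The cause was not tested. Same-numbered replicates did not deviate together across shared peaks, with Pearson correlations of -0.12, -0.04 and -0.35. Differences at single member peaks changed sign in 35 cases and kept it in 334. Many of the 334 could not change. Other overlaps, no trend and the replicate block leave the difference of a shared peak as it was. With library kit, the fit of maDC and imDC equalled that with the replicate block. The DCreg fits with kit gave the differences found without the TruSeq replicate of maDC or imDC, so these cases count again. The tally is thus no measure of how stable the signs are.

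When both replicates had to reach 1.5 on the log2 scale, members with a peak numbered 3 for imDC, 6 for maDC and 7 for DCreg (43.1%, 66.8% and 54.2% of all genes), with 5, 10 and 14 peaks. At 2 they numbered 3, 5 and 5 (25.7%, 44.9% and 36.8% of all genes), with 5, 8 and 6 peaks. With 1 replicate alone at 1.5, members numbered 6 to 7 in imDC, 7 to 9 in maDC and 8 to 9 in DCreg, with 8 to 9, 12 to 18 and 16 peaks. These settings only remove peaks from the lists, so none could add an imDC peak of Tirap or Tollip. Of these members, Tirap reached 1.5 in both replicates in DCreg, and Tollip in no list. Finding members by RefSeq transcript gave the same counts.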
